A study of Mus musculus with 5 samples.

Results

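The heat shock and DnaJ chaperone genes were examined in ribosome-bound RNA of Drd2 neurons of the central amygdala (CeA). All genes of the deposited table whose name starts with Hspa, Hspb, Hspd, Hspe, Hsph, Hsp90 or Dnaj were taken as members, which gave 64 of 15093 genes. The RNA was obtained by translating ribosome affinity purification (TRAP), in which ribosomes carrying an eGFP-tagged L10a subunit are pulled down from tissue. The mice were adult Drd2-TRAP animals, made by crossing a Drd2-Cre line with a Rosa26 line that expresses the tagged subunit after Cre recombination, so that the tag marks cells in which the Drd2-Cre transgene is or was active. Fear conditioned mice received tone and foot shock pairings and gave 3 libraries (replicates 2, 3 and 4), and the group labelled home cage gave 2 libraries (replicates 6 and 7). Each library was a pool of bilateral CeA punches from 3 animals, and all groups carried both transgenes. Brains were taken 2 h after the session. The labels name home cage controls and a session of fear extinction, while the study's text describes controls that heard the tone without shock and a session of conditioning, and the labels' name is kept here.

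Chaperones hold unfolded proteins out of aggregates and help them fold. Hsp70 proteins bind and release clients in a cycle driven by ATP, in which DnaJ proteins (also called Hsp40) deliver the client and stimulate hydrolysis, and nucleotide exchange factors such as Hsp110 release it. Hsp90 acts later on clients such as kinases and steroid receptors, Hsp60 and Hsp10 form the folding chamber of mitochondria, and small heat shock proteins bind unfolded clients without ATP. In neurons, some DnaJ proteins also serve the synapse, where Hsc70 (Hspa8) with Dnajc5 keeps release proteins folded and with auxilin (Dnajc6) strips clathrin from recycled vesicles. Transcription of the inducible members is driven by the factor Hsf1 after stress in the cytosol, and that of the members of the endoplasmic reticulum (ER) by the unfolded protein response.

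The deposited values are reads scaled to an effective library size (given here as CPM), with between 19605318 and 27937520 reads on genes per library, of which the members took between 0.853% and 1.06%. A count of 3 reads, used here as a floor for counting error, corresponds to between 0.1002 and 0.158 CPM. The Drd2 neuron genes Drd2, Adora2a and Penk were above this floor in all libraries, and the summed value of 7 genes of Drd2 and striatal projection neurons lay between 19921 and 21659 CPM after fear conditioning but at 8889 and 13334 in home cage mice, a sum that rests mostly on Penk. Markers of other cells were present too. The sums of 6 genes each lay between 58.0 and 110 CPM (fear conditioned) and at 1009 and 1415 (home cage) for choroid plexus, between 1248 and 2640 and at 2707 and 5183 for oligodendrocytes, between 229 and 304 and at 656 and 493 for astrocytes, between 10.7 and 35.6 and at 66.7 and 77.9 for endothelial and mural cells, between 46.7 and 194 and at 338 and 244 for pallial glutamatergic neurons, and between 37.2 and 67.1 and at 83.9 and 64.5 for microglia. Among these markers, Folr1 and Kcnj13 of choroid plexus were at 0 in fear conditioned replicate 2, Otx2 of choroid plexus was at 0 in home cage replicate 7 and Tek of endothelial cells in both home cage libraries. Of 7 listed ependymal genes 6 were in the table, with sums between 8.54 and 15.9 CPM and of 24.0 and 5.48, and 4 were at 0 in home cage replicate 7. The sums of the groups overlapped for microglia and ependymal cells and did not for the other lists, and the part of these lists in the differences between groups given below was not tested. In such pooled tissue, fewer cells of a type and less RNA per cell cannot be told apart.

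Home cage replicate 7 stood apart from the other libraries. In it 17.8% of the listed genes were at 0, against between 1.05% and 6.47% in the others. Of the chaperone genes, 5 were at 0 in this library (Hspa1l, Dnaja4, Dnajb2, Dnajb3 and Dnajc28) and none in any other library. Fold changes that depend on this library are therefore also given without it.

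The chaperone genes differed widely in level. Levels of different genes are compared here per 1000 bases of the deposited gene length, which ranged from 642 to 12714 bases among the members. Hsp90ab1, the constitutive cytosolic Hsp90, was the highest member, with a mean over the 5 libraries of 706 CPM per 1000 bases (range 525 to 869). Hspa8, the constitutive cytosolic Hsp70, followed with 431 (307 to 585), below Hsp90ab1 in each of the 5 libraries although the ranges of the pair overlapped. A further group with overlapping ranges came well below them, with Dnajc5 (cysteine string protein, of synaptic vesicles) at 136 (104 to 185), Dnajc8 (a nuclear protein of the splicing machinery) at 136 (111 to 152), Hsp90aa1 (the stress-inducible Hsp90) at 133 (111 to 178), Hspa5 (BiP, the Hsp70 of the ER) at 121 (64.6 to 160.5), Dnaja2 at 114 (88.8 to 131), Dnajc15 at 112 (79.5 to 146), Hspe1 (Hsp10) at 109 (68.4 to 191) and Hspbp1 at 107 (73.9 to 138). The mitochondrial pair of Hspd1 (Hsp60) at 63.8 and Hspa9 (mortalin) at 61.4 and the Hsp110 gene Hsph1 at 55.5 CPM per 1000 bases came next. The genes best known as heat-inducible were near the bottom of the order. Hspa1a had 0.670, Hspa1b 0.505 and the small heat shock gene Hspb1 (Hsp27) 1.77 CPM per 1000 bases, ranks 61, 62 and 57 of 64. The inducible DnaJ gene Dnajb1, by contrast, had 32.6 (7.52 to 48.3).

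**Figure D1:**
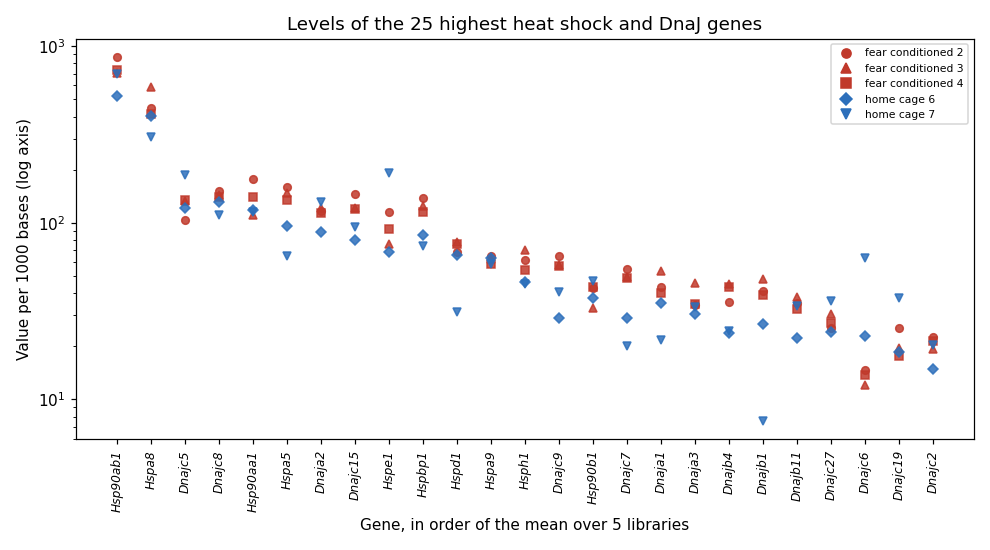
Levels of the 25 highest chaperone genes, as CPM per 1000 bases of gene length on a log axis, with 1 point per library (red, 3 fear conditioned libraries, blue, 2 home cage libraries). Hsp90ab1 and Hspa8 stand above the rest, and the points of most genes lie close together apart from home cage replicate 7 at Hspe1, Hspd1, Dnajb1 and Dnajc6.

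The 3 genes Hsp90ab1, Hspa8 and Hsp90aa1 took between 40.1% and 43.0% of the members' reads after fear conditioning, against 38.5% and 38.1% in home cage replicates 6 and 7. The members' summed value was 10244 ± 474 CPM (SD, n = 3) after fear conditioning and 8565 ± 364 (SD, n = 2) in home cage mice, and the groups did not overlap (9699 to 10551 against 8307 and 8822). By class, the sums did not overlap for Hsp70 (2186 to 2820 CPM against 2136 and 1655), DnaJA (866 to 1094 against 699.7 and 686), DnaJB (639.9 to 739.8 against 534 and 543) and the 3 other Hspb-named genes (214 to 262 against 167 and 133), each higher in the fear conditioned libraries. For Hsp70 this depended on the scaling. As a share of reads on genes, Hsp70 overlapped, with 0.220% in fear conditioned replicate 4 and 0.229% in home cage replicate 6. The sums overlapped for Hsp90 (2558 to 3345 against 2120 and 2623), Hsp110, Hsp60 with Hsp10, the small heat shock proteins and DnaJC (1973 to 2007 against 1727 and 2315).

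Among replicates the chaperone genes varied little in the fear conditioned libraries and more in the home cage libraries. Of the 63 members with a mean value of at least 1 CPM, which entered the comparison of groups, 1 (1.59%), Dnaja4, spanned more than 2-fold on the log2(value + 1) scale across the 3 fear conditioned libraries, against 8.31% of the 13560 genes that entered. Between the 2 home cage libraries 21 members (33.3%) differed more than 2-fold on this scale, against 52.7% of all genes. The median difference of the home cage libraries, on the log2(value + 1) scale, was 0.59 for the members and 1.08 for all genes. The members were also the more abundant genes, with a median level of 71.1 CPM against 24.4 CPM for all genes, both without a correction for length. Hspa9 (258.9, 251, 234, 253 and 235 CPM in fear conditioned replicates 2, 3 and 4 and home cage replicates 6 and 7), Hspa4 (74.9, 73.4, 67.6, 75.9 and 75.6) and Dnajc21 (31.0, 29.9, 31.6, 33.5 and 33.6) had the narrowest ranges of the 64 on the log2(value + 1) scale. Home cage replicate 7 held the lowest value of 26 members (41.3%, against 43.7% of all genes) and the highest of 17 (27.0%, against 31.9%), while home cage replicate 6 held the lowest of 19 (23.5% of all genes) and the highest of 13 (30% of all genes). In 7 members (11.1%, against 6.17% of all genes) home cage replicate 7 had 3 reads or fewer although each other library had at least 50. These were Dnaja4, Dnajb2, Dnajb3, Dnajc17, Hspa1b, Hspb6 and Hspb8. The reverse was seen in Dnajc25, with 5.50, 5.50 and 5.46 CPM after fear conditioning, 1.57 in home cage replicate 6 and 59.0 in home cage replicate 7.

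**Figure D2:**
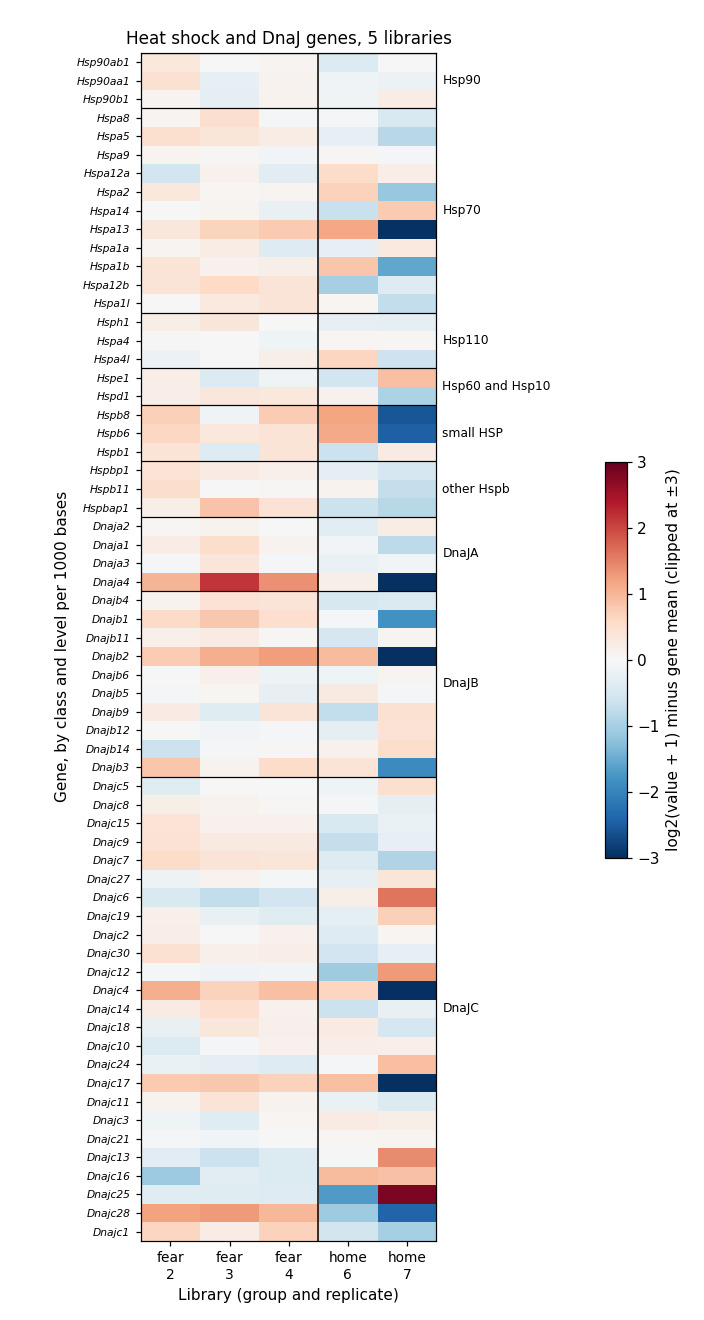
Values of all 64 chaperone genes in the 5 libraries, as log2(value + 1) minus the gene's mean (red above, blue below, colours clipped at 3 either way), with genes in rows by class and libraries in columns. The 3 fear conditioned columns look alike, and the strongest colours are in the column of home cage replicate 7, at Dnaja4, Dnajb2, Dnajc4, Dnajc17, Hspa13 and Dnajc25.

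**Figure D3:**
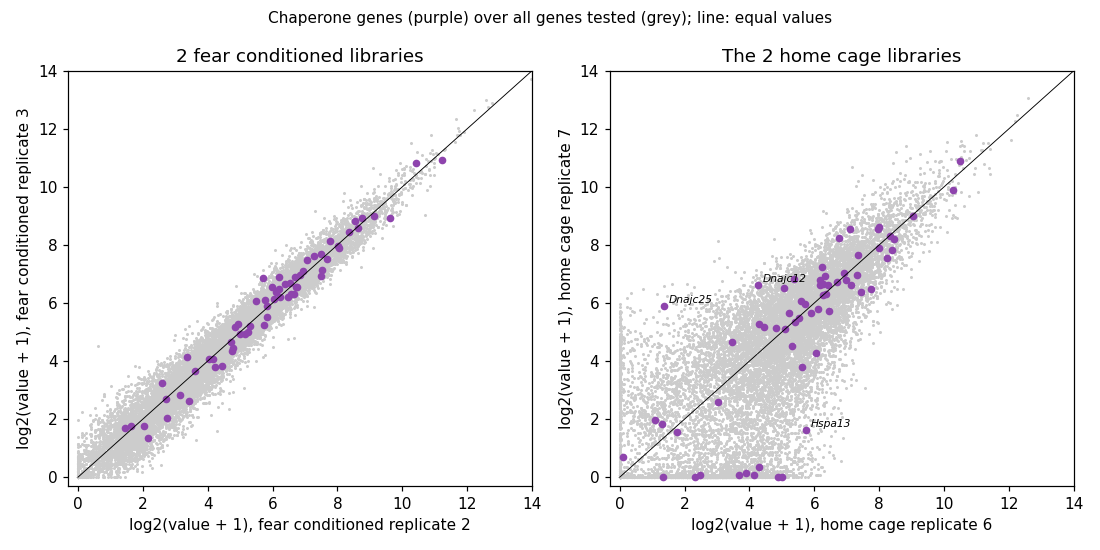
Values on the log2(value + 1) scale in 2 fear conditioned libraries (left) and in the 2 home cage libraries (right), with all genes tested in grey, chaperone genes in purple and the line of equal values in black. On the left the purple points lie close to the line, while on the right several lie at or near 0 in home cage replicate 7, with Dnajc25 and Dnajc12 far above the line and Hspa13 far below it.

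The fear conditioned and home cage libraries were set against each other in limma on the log2(value + 1) scale, two-sided, with Benjamini-Hochberg adjustment over 13560 genes. With limma, 0 of the 63 members passed an adjusted p of 0.05 with an absolute log2 fold change over 0.5, as did 0% of all genes, and the smallest adjusted p of a member was 0.197. An unadjusted p under 0.05 was found for 11 members higher after fear conditioning (17.5%, against 9.49% of all genes) and 2 lower (3.17%, against 7.32%). All 3 fear conditioned libraries lay above both home cage libraries for 23 members (36.5%, against 20.2%) and below both for 10 (15.9%, against 16.1%). The median log2 fold change was 0.34 for the members and 0.08 for all genes, with 41 members above 0 and 22 below. These shares describe the members beside all genes, and no test of the list was made. On recovered reads, limma voom and the quasi-likelihood test of edgeR also called 0 members, while DESeq2 called 4 higher (Dnajc7, Hspa5, Dnajb4 and Hspbp1, 6.25%, against 4.53% of all genes) and 2 lower (Dnajc6 and Dnajc16, 3.12%, against 4.42%).

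Which home cage library was used decided the counts. Without home cage replicate 7, limma called 11 members higher (17.5%, against 11.8% of all genes) and 2 lower (3.17%, against 15.7%), with a median log2 fold change of 0.22 for the members and -0.04 for all genes. Without home cage replicate 6 it called 22 higher (34.9%, against 36.2%) and 9 lower (14.3%, against 24.2%), with medians of 0.38 and 0.19. All fear conditioned libraries lay above home cage replicate 6 alone for 34 members and below it for 18 (37.1% and 41.3% of all genes), and above home cage replicate 7 alone for 34 and below it for 22 (49.4% and 38.3%). In both of these fits 1 home cage library is left, and it is assumed to vary as the fear conditioned libraries do.

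**Figure D4:**
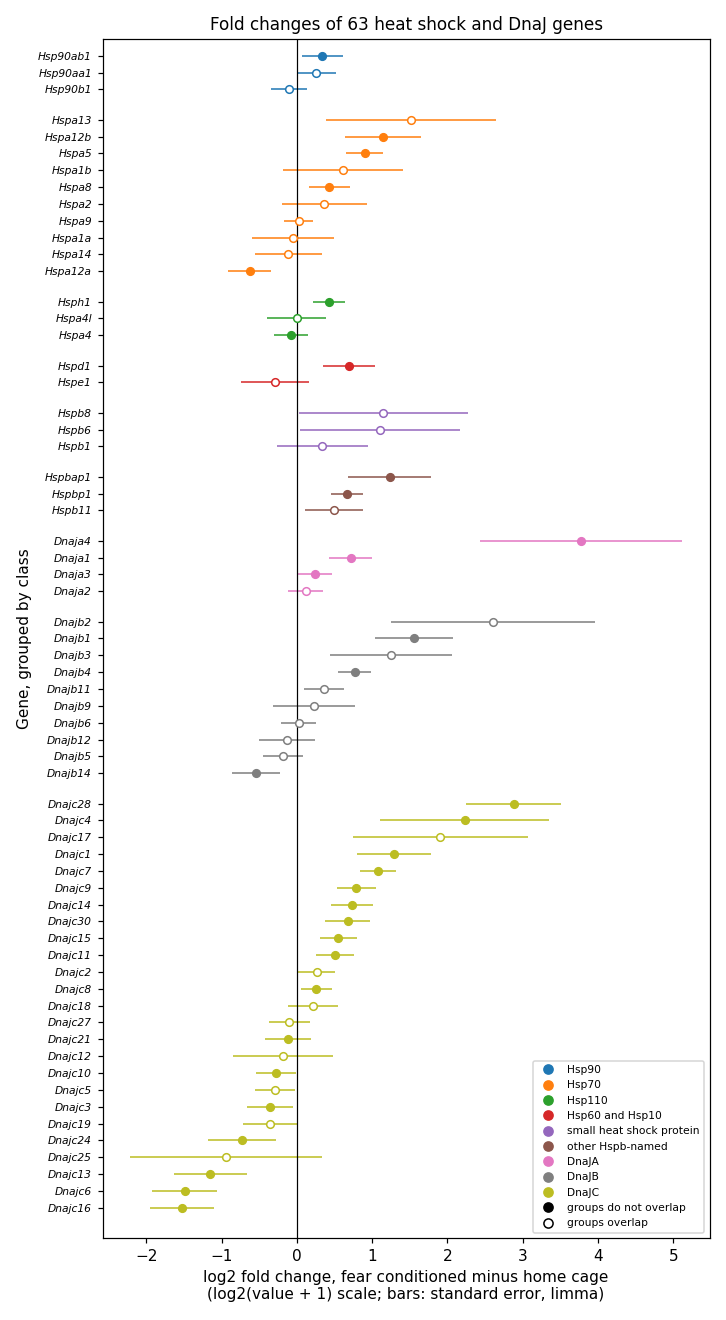
Log2 fold changes of 63 chaperone genes, fear conditioned minus home cage, on the log2(value + 1) scale, with bars of 1 standard error from limma, colours by class, and filled points where the libraries of the groups do not overlap. Most filled points lie to the right of 0, the DnaJC class spreads from Dnajc16 at -1.52 to Dnajc28 at 2.88, and the widest bars belong to genes at or near 0 in home cage replicate 7.

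The Hsp90 genes differed little between the groups. Hsp90ab1 (ENSMUSG00000023944) had 2372, 1925 and 2005 CPM after fear conditioning against 1433 and 1908 in home cage mice. The groups were separated only by the gap between the lowest fear conditioned library and home cage replicate 7, and the log2 fold change of 0.34 (standard error, SE, 0.27, adjusted p = 0.547) did not pass. It was 0.55 without home cage replicate 7 and 0.13 without replicate 6. Hsp90aa1 had 790.1, 492 and 621 CPM against 525 and 514, and Hsp90b1, the Hsp90 of the ER (GRP94), had 183, 141 and 186 against 162 and 201, so that the libraries of the groups overlapped for both. The log2 ratio of the inducible Hsp90aa1 to the constitutive Hsp90ab1 was -1.75 ± 0.20 (SD, n = 3) after fear conditioning and -1.67 ± 0.31 (SD, n = 2) in home cage mice, a difference within the spread of the libraries.

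Among the Hsp70 genes the libraries of the groups did not overlap for Hspa8, Hspa5 and Hspa12b (higher) and for Hspa12a (lower). These were 3 and 1 of the 10 Hsp70 genes tested, beside 20.2% and 16.1% of all genes. Hspa5 (ENSMUSG00000026864), the master chaperone of the ER, had 558, 515 and 468 CPM after fear conditioning against 334 and 225 in home cage mice. The lowest fear conditioned library was well above the higher home cage library, and the log2 fold change was 0.90 (SE 0.25, unadjusted p = 0.0102, adjusted p = 0.210, limma). Without home cage replicate 7 it was 0.62, and without replicate 6 it was 1.19. DESeq2 on recovered reads gave 0.85 (adjusted p = 0.0191). Hspa8 (ENSMUSG00000015656) had 1371, 1791 and 1263 CPM against 1242 and 940. Fear conditioned replicate 4 and home cage replicate 6 nearly met, and its log2 fold change was 0.43 (SE 0.28, adjusted p = 0.461), 0.23 without home cage replicate 7 and 0.63 without replicate 6. Hspa12a, an atypical Hsp70, had 71.8, 118 and 86.7 CPM against 158 and 124, a log2 fold change of -0.63 (SE 0.29, adjusted p = 0.337). Hspa12b, its paralog, was low in all libraries, with 37, 53 and 36 reads against 2 and 12.

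Other Hsp70 genes overlapped between the groups. Hspa9, which drives import into mitochondria, had a log2 fold change of 0.02 (SE 0.19). Hspa13 had 29.6, 37.4 and 40.7 CPM against 52.4 and 2.06, and the fold change on the log2 scale was 1.52 with and -0.55 without home cage replicate 7. The heat-inducible Hspa1a had 44, 58 and 25 reads against 44 and 49. Its near-identical neighbour Hspa1b had 66, 58 and 51 reads against 135 and 1, and reads of this pair could be split by the counting, which makes both uncertain. Hspa1l of the same cluster had 14, 25 and 24 reads against 22 and 0, where 0 of 19605318 reads allows up to 0.158 CPM, and its mean was under the minimum of 1 CPM for the test. Hspa2 (37.0, 30.7 and 31.5 CPM against 48.7 and 13.0) and Hspa14 (65.6, 68.8 and 55.1 against 40.7 and 113) had the home cage libraries on opposite sides of the fear conditioned libraries. The identifier listed as Hspa14 carries another symbol in the table of gene names used here, so its identity is uncertain.

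Values of the members that serve the ER lay on both sides of 0. A group of 10 such genes was made after the values were seen (Hspa5, Hsp90b1, Hspa13, Dnajb9, Dnajb11, Dnajb12, Dnajb14, Dnajc1, Dnajc3 and Dnajc10). It is not a full list of members with a role at the ER, and Dnajc14, for example, is not in it. In this group 5 genes had log2 fold changes above 0 and 5 below, with a median of 0.06 (0.08 for all genes). The libraries of the groups did not overlap for Hspa5 and Dnajc1 (higher) and for Dnajb14, Dnajc3 and Dnajc10 (lower), 2 and 3 of the 10 genes, beside 20.2% and 16.1% of all genes. Dnajc1, a DnaJ protein of the ER membrane, had 17.9, 13.0 and 18.4 CPM against 7.18 and 5.06, a log2 fold change of 1.29 (SE 0.49, adjusted p = 0.274). Dnajc3 (p58IPK), a co-chaperone of BiP, had 34.6, 29.4 and 39.8 CPM against 45.0 and 43.3, a log2 fold change of -0.35 (SE 0.30). Dnajc10 (ERdj5), a disulfide reductase, had 53.0, 67.0 and 77.4 against 80.6 and 77.7, with the highest fear conditioned library just under the home cage libraries. Dnajb14 had 43.8, 66.7 and 71.0 against 75.5 and 99.8. Dnajb11 (ERdj3) had 114, 123 and 106 against 71.8 and 109, and Dnajb9 (ERdj4) 21.0, 13.3 and 23.1 against 10.1 and 24.5. The log2 ratio of Hspa5 to Hsp90b1 was 1.61, 1.87 and 1.33 after fear conditioning against 1.04 and 0.16 in home cage mice, a ratio chosen after the values were seen.

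Hspa5, Hsp90b1 and Dnajc3 share a promoter element, and their promoters are shown for that reason. The RefSeq promoter windows of build GRCm38.p6 (250 bases before to 50 bases after the start of transcription) were found for 53 of the 64 members. They were searched on both strands for the ER stress response element, taken as CCAAT and CCACG with any 9 bases between them. It was found in 37 of 27025 genes (0.137%) and in 3 of the 53 members (5.66%). In the windows below, the capitals mark the element, read 5′ to 3′ on the strand of the gene. The windows are at chr2:34771840-34772139 (plus strand) for Hspa5, chr10:86705395-86705694 (minus strand) for Hsp90b1, with a match on each strand, and chr14:118937682-118937981 (plus strand) for Dnajc3.
Hspa5: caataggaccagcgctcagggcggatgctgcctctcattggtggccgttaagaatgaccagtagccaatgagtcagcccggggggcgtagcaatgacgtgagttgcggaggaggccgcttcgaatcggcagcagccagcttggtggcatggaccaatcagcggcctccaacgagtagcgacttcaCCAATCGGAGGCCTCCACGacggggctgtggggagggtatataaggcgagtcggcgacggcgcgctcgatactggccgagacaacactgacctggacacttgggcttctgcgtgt
Hsp90b1: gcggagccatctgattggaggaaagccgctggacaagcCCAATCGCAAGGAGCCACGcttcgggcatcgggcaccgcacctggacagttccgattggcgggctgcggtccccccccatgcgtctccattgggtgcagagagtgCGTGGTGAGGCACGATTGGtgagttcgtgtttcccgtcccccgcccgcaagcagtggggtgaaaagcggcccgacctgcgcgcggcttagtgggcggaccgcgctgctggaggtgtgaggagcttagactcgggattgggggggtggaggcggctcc
Dnajc3: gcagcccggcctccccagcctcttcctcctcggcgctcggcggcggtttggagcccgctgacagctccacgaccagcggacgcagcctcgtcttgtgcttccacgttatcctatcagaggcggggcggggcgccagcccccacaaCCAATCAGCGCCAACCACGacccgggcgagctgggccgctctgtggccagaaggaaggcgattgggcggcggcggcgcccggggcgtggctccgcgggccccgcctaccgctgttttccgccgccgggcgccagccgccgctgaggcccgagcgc
Beside these windows, the log2 fold changes were 0.90 for Hspa5 (SE 0.25), -0.10 for Hsp90b1 (SE 0.24), which was 0.056 without home cage replicate 7, and -0.35 for Dnajc3 (SE 0.30), and none passed the adjusted test in limma. A match is a description of the letters and not of a bound site.

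Of the Hsp110 genes, which act as nucleotide exchange factors of Hsp70, Hsph1 (ENSMUSG00000029657) had 434, 491 and 381 CPM after fear conditioning against 325 and 317 in home cage mice. The groups did not overlap, with a log2 fold change of 0.43 (SE 0.21, adjusted p = 0.359), 0.41 without home cage replicate 7 and 0.45 without replicate 6. Hspa4 was nearly level, at -0.07 (SE 0.23), although its fear conditioned libraries all lay under the home cage libraries by a small margin. Hspa4l had 121, 138 and 155 CPM against 214 and 88.4, with the home cage libraries on either side.

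The mitochondrial chaperonin genes Hspd1 and Hspe1 sit head to head, and their promoter windows share 285 bases on opposite strands. Hspd1 (ENSMUSG00000025980) had 180.0, 204 and 199 CPM after fear conditioning against 174 and 82.3 in home cage mice. Hspe1 (ENSMUSG00000073676) had 181, 119.7 and 145 against 107 and 299.7. Home cage replicate 7 thus held the lowest value of Hspd1 and the highest of Hspe1, while in home cage replicate 6 both were below every fear conditioned library. The log2 ratio of Hspd1 to Hspe1 was -0.01, 0.77 and 0.46 in the fear conditioned libraries, 0.70 in home cage replicate 6 and -1.87 in home cage replicate 7. The log2 fold change was 0.69 for Hspd1 (SE 0.34, adjusted p = 0.361) and 0.16 without home cage replicate 7, and -0.29 for Hspe1 (SE 0.45, adjusted p = 0.770), which turned to 0.45 without that library. The shared window is shown from the side of Hspe1, at chr1:55087898-55088197 (plus strand) of GRCm38.p6, with a heat shock element in capitals.
Hspe1: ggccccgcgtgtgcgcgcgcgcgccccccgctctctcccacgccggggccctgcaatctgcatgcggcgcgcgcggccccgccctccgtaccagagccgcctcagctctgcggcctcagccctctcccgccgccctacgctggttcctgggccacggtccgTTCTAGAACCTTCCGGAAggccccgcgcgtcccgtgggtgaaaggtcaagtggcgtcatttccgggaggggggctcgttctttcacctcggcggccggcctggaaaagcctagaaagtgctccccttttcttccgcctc
The capitals hold a pair of overlapping matches, on opposite strands, to the heat shock element, taken as GAA, TTC and GAA in this order with NN between the units, the inverted repeats that Hsf1 binds. Only exact matches within the windows were searched, so a gene without a match may still hold the element in another form or place. The stretch in capitals lies in the windows of both Hspd1 and Hspe1, and it counts for each of them. The motif was found in 179 of 27025 genes (0.662%) and in 4 of the 53 members (7.55%), Hspd1, Hspe1, Hsph1 and Dnajb6. In Hsph1 it read TTCTGGAAAGTTC, after the start of transcription at chr5:149636266-149636565 (minus strand), and in Dnajb6 it read GAATCTTCCGGAA, in the window at chr5:29735648-29735947 (plus strand). The log2 fold changes of these genes were 0.69, -0.29, 0.43 and 0.03 in that order. A group of 8 members that serve mitochondria was again made after the values were seen (Hspa9, Hspd1, Hspe1, Dnaja3, Dnajc11, Dnajc15, Dnajc19 and Dnajc30). It may not hold every such member. In this group 6 genes had log2 fold changes above 0, with a median of 0.38 (0.08 for all genes). The groups of libraries did not overlap for 5 of these genes, all higher, as for 20.2% of all genes. Dnajc15, which acts at the import channel, had 94.0, 77.5 and 76.9 CPM against 51.0 and 61.2, Dnajc30 had 56.2, 45.1 and 47.0 against 27.1 and 34.2, Dnajc11 had 72.4, 88.4 and 71.8 against 58.3 and 49.8, and Dnaja3 (Tid1) had 133, 178 and 136 against 119 and 130.5. Dnajc19 of the import motor had 101, 78.2 and 70.8 against 74.5 and 149.

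The small heat shock genes among the members were low. Cryab, a small heat shock gene under another name and no member, was not. It had 79.2, 37.4 and 86.9 CPM after fear conditioning against 93.0 and 64.2 in home cage mice, with overlap. Hspb8, a partner of the co-chaperone Bag3, had 206, 123 and 203 reads after fear conditioning against 417 and 2 in home cage mice. Hspb6 had 165, 148 and 134 reads against 350 and 1. In both, home cage replicate 6 was the highest and replicate 7 the lowest library, and the log2 fold changes of 1.15 for Hspb8 and 1.103 for Hspb6 turned to -0.73 and -0.69 without replicate 7. Hspb1 had 73, 37 and 68 reads against 34 and 56, a log2 fold change of 0.34 (SE 0.61), 0.78 without home cage replicate 7 and -0.11 without replicate 6. Among the genes named Hspb for other reasons, Hspbp1 (ENSMUSG00000063802), a nucleotide exchange factor that binds Hsp70, had 204, 184 and 171 CPM against 126 and 109. The groups were well apart, with a log2 fold change of 0.66 (SE 0.21, unadjusted p = 0.0197, adjusted p = 0.231, limma), 0.56 without home cage replicate 7 and 0.76 without replicate 6. Hspbap1 had 5.03, 8.54 and 6.21 CPM against 2.40 and 1.95, also without overlap, a log2 fold change of 1.23 (SE 0.55, adjusted p = 0.326). Hspb11 (Ift25), a subunit of the intraflagellar transport complex, had 52.8, 36.5 and 37.0 against 38.9 and 21.7.

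All 4 DnaJA genes, the class closest to bacterial DnaJ, had log2 fold changes above 0, and for 3 (75.0%, against 20.2% of all genes) the groups did not overlap. Dnaja1 (ENSMUSG00000028410), a cytosolic partner of Hsc70, had 372, 457 and 343 CPM after fear conditioning against 301 and 185 in home cage mice, a log2 fold change of 0.72 (SE 0.28, unadjusted p = 0.0430, adjusted p = 0.284) that was 0.37 without home cage replicate 7. Dnaja2 had 328, 344 and 320.4 against 251 and 371, with the home cage libraries on either side. Dnaja4 (ENSMUSG00000032285) had 51.5, 115 and 66.3 CPM against 28.4 and 0. It had the highest fold change of all members on the log2 scale, 3.78 (SE 1.34, adjusted p = 0.252), which was 1.34 without home cage replicate 7, where 0 reads allow up to 0.158 CPM.

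Of 10 DnaJB genes, 7 had log2 fold changes above 0, and the groups did not overlap for Dnajb1 and Dnajb4 (higher) and Dnajb14 (lower), beside 20.2% and 16.1% of all genes. Dnajb4 (ENSMUSG00000028035) had 153, 194 and 186 CPM after fear conditioning against 102 and 105 in home cage mice. Its home cage libraries were nearly equal, and its log2 fold change of 0.77 (SE 0.22, unadjusted p = 0.0116, adjusted p = 0.217) was 0.79 without home cage replicate 7 and 0.75 without replicate 6. Dnajb1 (ENSMUSG00000005483), the main inducible Hsp40, had 102, 119 and 96.3 against 66.0 and 18.6. The lower home cage library set much of its log2 fold change of 1.55 (SE 0.52, unadjusted p = 0.0231, adjusted p = 0.240), which was 0.66 without it. Dnajb2, a neuronal DnaJ protein that sorts clients to the proteasome, had 27.5, 34.7 and 39.0 against 31.1 and 0, and its log2 fold change went from 2.60 to 0.10 without home cage replicate 7. Dnajb6, which suppresses aggregation, had 92.2, 102 and 82.5 against 84.0 and 97.0, and Dnajb5 55.3, 58.9 and 47.5 against 68.0 and 54.6. Dnajb12 of the ER membrane had 25.4, 24.0 and 24.6 against 21.1 and 34.7, and Dnajb3 had 121, 74 and 91 reads against 120 and 0.

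**Figure D5:**
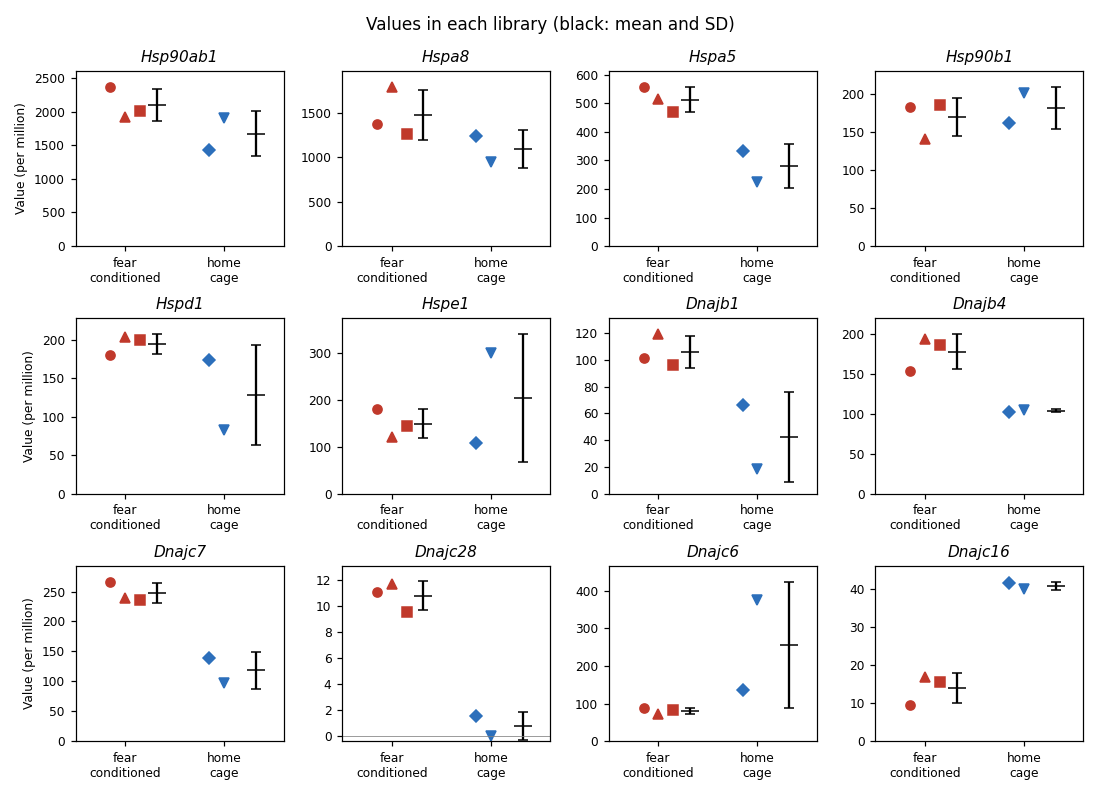
Values of 12 chaperone genes in CPM, with 1 point per library (red, 3 fear conditioned libraries, blue, 2 home cage libraries) and the mean with its SD in black. The panels are a selection, in which the groups overlap in Hsp90b1 and Hspe1 and do not overlap in the rest. Of all 63 members tested, the groups did not overlap for 23 higher and 10 lower (20.2% and 16.1% of all genes). The long bars of Hspd1, Hspe1, Dnajb1 and Dnajc6 come from the distance between the 2 home cage libraries.

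The DnaJC class, which shares with the others only the J domain that contacts Hsp70, had log2 fold changes on both sides of 0 and the lowest of all members. Of 25 genes, 13 had log2 fold changes above 0 and 12 below. The groups did not overlap for 10 in the upward direction (40.0%, against 20.2% of all genes) and 7 in the downward direction (28.0%, against 16.1%). Dnajc7 (ENSMUSG00000014195), which binds both Hsp70 and Hsp90 through TPR repeats, had 266, 239.7 and 236 CPM after fear conditioning against 139 and 96.5 in home cage mice. Its lowest fear conditioned library was far above the higher home cage library. The log2 fold change was 1.08 (SE 0.24, unadjusted p = 0.00365, adjusted p = 0.197), 0.82 without home cage replicate 7 and 1.35 without replicate 6, and DESeq2 gave 1.04 (adjusted p = 0.00257). Dnajc28 (ENSMUSG00000039763) had 234, 281 and 192 reads against 46 and 0, a log2 fold change of 2.88 (SE 0.63, unadjusted p = 0.00342, adjusted p = 0.197) and of 2.21 without home cage replicate 7.

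Further DnaJC genes lay higher after fear conditioning. Dnajc9, a chaperone of histones, had 105, 93.3 and 93.0 CPM against 47.0 and 65.7, a log2 fold change of 0.79 (SE 0.26, unadjusted p = 0.0206). Dnajc14, which is known for the export of dopamine D1 receptors from the ER, had 68.5, 81.7 and 62.96 against 36.3 and 48.9, a log2 fold change of 0.73 (SE 0.28, unadjusted p = 0.0392). Neither fell below 0.52 with either home cage library left out. Dnajc8 had 401, 382 and 368 against 348 and 294, without overlap, but with a log2 fold change of 0.26 (SE 0.20) that was 0.14 without home cage replicate 7. Dnajc4 had 541, 468 and 453 reads against 559 and 5. Scaled, home cage replicate 6 (18.7 CPM) lay just under the fear conditioned libraries (19.5 to 25.6 CPM), and home cage replicate 7 had 0.264 CPM.

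Dnajc16, Dnajc6 and Dnajc13 had the lowest log2 fold changes of the class. Dnajc6 (ENSMUSG00000028528), auxilin, had 87.9, 72.1 and 81.8 CPM after fear conditioning against 137 and 375 in home cage mice. Its home cage libraries were far apart but both higher, with a log2 fold change of -1.49 (SE 0.43, unadjusted p = 0.0126, adjusted p = 0.217) and of -0.77 without home cage replicate 7. Dnajc13 (RME-8), an endosomal DnaJ protein, had 26.6, 21.0 and 24.8 against 32.6 and 90.8, a log2 fold change of -1.15 (SE 0.48) and of -0.42 without home cage replicate 7. Dnajc16 (ENSMUSG00000040697) had 9.39, 16.7 and 15.6 against 41.5 and 40.0. Its home cage libraries were nearly equal, and its log2 fold change of -1.52 (SE 0.42, unadjusted p = 0.0104, adjusted p = 0.211) was -1.55 without home cage replicate 7 and -1.50 without replicate 6. Dnajc5, the other vesicle gene, had 218, 279 and 282 against 256 and 388, a log2 fold change of -0.29 (SE 0.27), with overlap, and of 0.012 without home cage replicate 7. Gak, the auxilin of all tissues and no member by name, had 61.9, 67.9 and 54.4 CPM against 98.3 and 99.7, a log2 fold change of -0.69 (SE 0.24, adjusted p = 0.247).

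The remaining DnaJC genes were closer to level or set by 1 library. Dnajc24, of the diphthamide pathway, had 16.7, 15.7 and 14.5 CPM against 18.8 and 37.4, below both home cage libraries. Dnajc12, a co-chaperone of aromatic amino acid hydroxylases, had 38.5, 36.2 and 36.8 against 18.3 and 96.9, so that the nearly equal fear conditioned libraries lay between the home cage libraries. Dnajc17 had 15.5, 15.7 and 14.4 against 16.7 and 0.0527, where the last value is 1 read. Dnajc2, a chaperone of the ribosome, had 108, 92.2 and 102 against 71.6 and 97.2, Dnajc27 had 83.3, 100.1 and 89.6 against 79.0 and 119.8, and Dnajc18 had 61.6, 92.4 and 80.3 against 85.8 and 51.3.

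For each of the 11 higher and 2 lower members with an unadjusted p under 0.05, the exact permutation test (two-sided, over the 10 splits of 5 libraries into 3 and 2) gave p = 0.1, the smallest it allows, so that no single member could pass this test.

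Other folding genes were examined as a list of 77 genes without the members' names, of which 72 entered the comparison. With limma, 0 passed an adjusted p of 0.05. An unadjusted p under 0.05 was reached by 14 higher and 1 lower, beside 9.49% and 7.32% of all genes, and the groups did not overlap for 22 in the upward and 4 in the downward direction, beside 20.2% and 16.1% of all genes. The median log2 fold change of the list was 0.31, beside 0.08 for all genes. Of 24 co-chaperones of Hsp70 and Hsp90, 18 had log2 fold changes above 0, and the groups did not overlap for 11, all higher (20.2% of all genes). An unadjusted p under 0.05 in limma was found for 7, all higher (9.49% of all genes), among them Bag1, Stip1, Stub1, Cdc37, Sgta and Chordc1. Without home cage replicate 7 the log2 fold changes of these named genes went, in that order, from 0.83 to 0.68, 0.69 to 0.47, 2.16 to 0.55, 0.59 to 0.34, 0.95 to 0.57 and 1.11 to 0.45. Stip1 (Hop), which passes clients from Hsp70 to Hsp90, had 316, 285 and 244 CPM against 201 and 149, a log2 fold change of 0.69 (SE 0.24, adjusted p = 0.248). Bag1, an exchange factor of Hsp70, had 455, 359.9 and 316 against 233 and 189. Hsf1, the factor of the heat shock response, had 51.0, 56.7 and 49.95 against 37.6 and 11.4, a log2 fold change of 1.29 (SE 0.51, adjusted p = 0.286) that was 0.47 without home cage replicate 7. Of 16 tested genes of ER folding and the unfolded protein response, 13 had log2 fold changes above 0. An unadjusted p under 0.05 in limma was found for 4 (Xbp1, Pdia4, Pdia6 and Atf6), all higher (9.49% of all genes). The groups did not overlap for 5 in the upward and 1 in the downward direction, beside 20.2% and 16.1% of all genes. Without home cage replicate 7 the log2 fold changes of the 4 went, in that order, from 0.90 to 0.99, 1.11 to 1.11, 0.66 to 0.65 and 1.52 to 0.85. Xbp1, a transcription factor of the unfolded protein response, had 366, 299 and 309 CPM against 162 and 183, a log2 fold change of 0.90 (SE 0.21, adjusted p = 0.197). Pdia4 had 58.4, 56.3 and 72.1 against 28.2 and 28.0. The chaperonin TRiC and prefoldin genes were near level, with a median log2 fold change of 0.16 over 14 genes. Of these, H2-Ke2 (prefoldin subunit 6) was higher with an unadjusted p under 0.05, beside 9.49% of all genes. Of 8 genes of nucleotide exchange and mitochondrial folding, 6 lay above 0, with Sil1, the exchange factor of BiP, at 1.17 (SE 0.43), and at 0.70 without home cage replicate 7.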

How the data were processed

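The 5 libraries of ribosome-bound RNA from CeA Drd2 neurons were compared. The authors sequenced SMARTer and Nextera XT libraries (paired-end) and used software named Tuxedo DESeq, and the submitters' processing notes name build mm8. The aligner, the annotation and whether strand was used are not given in the sources used here. The authors deposited a normalized signal per gene and library, in reads scaled to an effective library size, with a gene length. All values (100%) were whole multiples of 1 read within 0.01, which gave recovered reads (19605318 to 27937520 per library). The labels name no batch, and p-values measure the spread between these pools. Intervals and floors cover counting error only.

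Groups were compared with limma 3.58.1 (trended eBayes), taking log2(value + 1) of the genes whose mean reached 1. A call needed a Benjamini-Hochberg adjusted p below 0.05 together with a log2 fold change beyond 0.5 in size. Fold changes on this scale understate those of low genes. Alternatives were a pseudocount of 0.1, other filters, quantile and TMM normalization, array weights, each library left out, and edgeR 4.0.16, DESeq2 1.42.0 and limma voom on recovered reads. The fits were run on simulated counts with known, large changes and the same spread in every library. That setting lacks the distance between the home cage libraries, so it does not show how the fits perform on these data. The other software was Python 3.11.15 with matplotlib 3.10.9, pandas 2.3.3 and numpy 2.4.6, and R 4.3.3.

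Named by rule were, in each class, up to 4 members with the highest level per 1000 bases and those with the highest and lowest fold change, every member with an unadjusted p under 0.05 or at 3 reads or fewer in 1 whole group only, a set of textbook inducible and constitutive genes, and the other folding genes with an unadjusted p under 0.05. This gave 40 members. The remaining members, and the ratios and compartment groups, were named after their values were seen. The members and lists were chosen with earlier results of these data known. Identifiers of all 64 members were found in the table of gene names, 63 with the same symbol. Promoter windows and coordinates are from RefSeq (GRCm38.p6), whose build differs from that of the reads, and no coordinate was carried between them. Some genes of the lists are not reported here by name.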

Additional observations from a re-analysis of the deposited data

How the results depend on the processing

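No paired analysis was possible because the groups share no replicate numbers. The number of members past an adjusted p of 0.05 was 0 under every other filter, pseudocount and scaling, with array weights, limma voom and the quasi-likelihood test of edgeR, and without any 1 fear conditioned library. It was 6 with DESeq2 and, over the libraries left out, between 0 and 31, with 13 without home cage replicate 7 and 31 without replicate 6, where the lone home cage library is assumed to vary like the other group. With each library left out, members at an unadjusted p under 0.05 numbered from 3 to 25 higher and from 2 to 11 lower, those with groups that did not overlap from 24 to 34 higher (21.9% to 49.4% of all genes) and from 10 to 22 lower (18.0% to 41.3%), and the folding genes outside the members from 4 to 33. The largest of these counts come from fits with 1 home cage library left. Without 1 fear conditioned library, 3 or 4 members were higher and 2 or 3 lower at an unadjusted p under 0.05 in limma. Of all genes, 3.36% to 4.37% were higher and 3.14% to 3.48% lower in these fits. The other folding genes at this threshold numbered 4 or 5. Array weights gave both home cage libraries a weight of 0.172. They left 5 members higher and 1 lower at an unadjusted p under 0.05 (3.39% and 1.56% of all genes), and 3 of the other folding genes. DESeq2 gave 4 members lower at an unadjusted p under 0.05 (10.8% of all genes). With quantile normalization 6 members lay below both home cage libraries without overlap, beside 17.6% of all genes. The members' median log2 fold change of 0.34 was 0.26 with quantile normalization, 0.23 where each library had to reach 1 CPM and 0.24 with DESeq2, and between 0.22 and 0.38 with each library left out. The median of all genes ranged from -0.07 with DESeq2 to 0.25 with limma voom.

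Of 554 values of 40 named members under 14 alternatives, 495 kept their direction and their side of the threshold, 35 passed it and 24 turned in sign. Those that turned with another scaling or tool were near 0 or low, Hspa9 (-0.020 with quantile normalization, -0.011 with array weights and -0.0068 with DESeq2), Hspa4 (0.00098 with quantile normalization), Hspa4l (0.014 with TMM and 0.073 with array weights), Hspa1b (-0.046) and Hspb1 (-0.21, both with quantile normalization). With each library left out, the log2 fold change ranged from -0.17 to 0.40 for Dnaja2, -0.59 to 0.012 for Dnajc5, -0.25 to 0.056 for Hsp90b1, -0.55 to 3.58 for Hspa13, -0.32 to 0.22 for Hspa1a, -0.58 to 1.81 for Hspa1b, -0.64 to 0.63 for Hspa4l, -0.030 to 0.079 for Hspa9, -0.11 to 0.78 for Hspb1, -0.69 to 2.90 for Hspb6, -0.73 to 3.03 for Hspb8 and -1.03 to 0.45 for Hspe1. The cause of these turns was not tested. At these depths a value at 0 allows up to 0.158 CPM, and with 3 libraries against 2 the exact permutation test cannot go below p = 0.1.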
